A study of Mus musculus with 4 samples.

Results

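The insulin-like growth factor (IGF) genes of the mouse aorta were read from single-cell RNA: the ligands Igf1 and Igf2, the receptor Igf1r, and the IGF binding proteins Igfbp2, Igfbp3, Igfbp4, Igfbp5, Igfbp6 and Igfbp7. These 9 of the 32285 genes in the deposited count tables were chosen by symbol, with earlier results of these data known. Each was followed through 6 cell classes of 4 libraries, which makes 54 combinations of gene and class.

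IGF1 and IGF2 are secreted growth factors that signal through the tyrosine kinase receptor IGF1R to PI3K and AKT. In the vessel wall the pathway is known for supporting survival, growth and migration of smooth muscle cells. The binding proteins hold IGFs in the circulation and in the matrix, limit how much ligand reaches the receptor, and release it when proteases cut them. IGFBP7 binds IGFs weakly and is a matrix protein of vessels.

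Aortas were digested to single cells and profiled from the 3' ends of transcripts with a 10x Genomics kit. The 4 groups, 1 library each, were WT and LysM-DKO mice fed normal diet, and WT/ApoE-/- and LysM-DKO/ApoE-/- mice fed western diet. Values listed without names follow this order. The labels spell out neither gene of the double knockout; the series title names epsins, the endocytic adaptors Epn1 and Epn2, and LysM stands for the lysozyme M promoter, which is active in macrophages, monocytes and neutrophils. Loss of ApoE raises blood cholesterol and, with a western diet, leads to atherosclerosis. The labels give no age, no sex and no number of animals per library.

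With 1 library per group there was no replicate and no test. Transcripts were counted by unique molecular identifiers (UMIs, 1 per captured transcript), and levels are UMIs of a gene per 1000000 UMIs of the class (CPM). A genotype ratio is LysM-DKO over WT on the same diet, and a diet ratio is the ApoE-/- western diet library over the normal diet library of the same genotype, both on the log2 scale. Square brackets hold exact Poisson 95% intervals of levels or exact binomial 95% intervals of ratios, which cover counting error only and neither the spread between animals nor that between cells. A difference is called past 2-fold only where the libraries together held at least 50 UMIs.

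The libraries held 50662515 to 67450979 UMIs in 11414 to 29724 barcodes, of which 7758, 8230, 13744 and 8133 had 1000 or more UMIs and no more than 10% mitochondrial UMIs and were used. Between 101 and 160 of them per library had a sequence also seen in another library. Apoe was at 549 and 946 CPM in the normal diet libraries and at 4.47 and 1.92 in the western diet libraries, as their ApoE labels state. Xist, a transcript of female cells, was at 950 and 950 CPM in the former and 0.636 and 0.563 in the latter, and the Y-linked Ddx3y was at 0 UMIs in the former and at 117 and 124 CPM in the latter. Diet, ApoE genotype, sex of the cells and version of the counting software therefore cannot be told apart in any diet ratio. Macrophage Epn1 was at 81.7, 54.5, 52.4 and 42.7 CPM and Epn2 at 35.6, 33.6, 33.2 and 15.7 CPM; a 3' tag may lie outside a deleted part, so these levels check nothing. Lyz2, the gene of lysozyme M, was lower in both LysM-DKO libraries, at 3696, 977, 4126 and 798 CPM in macrophages.

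A barcode joined the first class whose marker rule it met, so RNA of a second cell type did not keep it out. The class sizes were 92, 208, 939 and 135 barcodes for macrophages, 628, 751, 634 and 654 for fibroblasts, 732, 880, 394 and 417 for the endothelial class and 3690, 3487, 8836 and 6636 for smooth muscle. B cells numbered 773, 1121, 503 and 14 and T cells 738, 645, 315 and 33. Markers outside the rules were highest in their own class in all 4 libraries, except 1 of 5 T cell markers in the LysM-DKO/ApoE-/- western diet library. The endothelial class nevertheless went partly against its name: smooth muscle markers summed there to 18575 to 26131 CPM, against 30317 to 40708 in smooth muscle. Of its barcodes 69.4% to 83.2% also met the smooth muscle rule, as did 34.1% to 61.5% of macrophages and 27.7% to 44.6% of fibroblasts. So did 17.9% to 67.1% of B cells and 19.7% to 69.6% of T cells. The western diet fibroblast class also held cartilage markers, at 4389 and 1363 summed CPM against 205 and 327, and markers of modulated smooth muscle, at 26789 and 9630 against 2872 and 3394. In such sums fewer cells of a type and less RNA per cell cannot be told apart. For several results, barcodes that met the rule of their own class alone were therefore read separately.

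In the mouse genome (GRCm38, GENCODE M21) Igf1 is at chr10:87858265-87937042 (plus strand), Igf2 at chr7:142650766-142666816 (minus) and Igf1r at chr7:67952827-68233668 (plus). Igfbp2 at chr1:72824503-72852474 (plus) and Igfbp5 at chr1:72857932-72874884 (minus) are neighbours, 5458 bp apart. Igfbp3 at chr11:7206086-7213923 (minus) lies 3540 bp from Igfbp1, and Igfbp4 is at chr11:99041244-99054392 (plus). Igfbp6 is at chr15:102144362-102149511 (plus) and Igfbp7 at chr5:77349240-77408041 (minus). Gm49394 and Mir483 overlap Igf2 on its own strand. Igf1os overlaps Igf1, Igf2os overlaps Igf2 and Polr2b overlaps Igfbp7, each on the other strand. Whether the authors' counting used strand is not given in the sources used here, so counts of these overlapping pairs are uncertain to that extent.

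All 9 genes have an entry among the RefSeq promoters (GRCm38.p6, 250 bases before to 50 after the start). Shown are the window of Igfbp3 (chr11:7213874-7214173, minus strand), the gene with the lowest diet ratios, and those of Igfbp4 (chr11:99040994-99041293, plus strand) and Igfbp6 (chr15:102143936-102144235, plus strand), the members whose levels were most alike. Each is written 5′ to 3′ on the strand of its gene, with capitals for the letters TATAAA, the TATA box, searched on both strands.
Igfbp3: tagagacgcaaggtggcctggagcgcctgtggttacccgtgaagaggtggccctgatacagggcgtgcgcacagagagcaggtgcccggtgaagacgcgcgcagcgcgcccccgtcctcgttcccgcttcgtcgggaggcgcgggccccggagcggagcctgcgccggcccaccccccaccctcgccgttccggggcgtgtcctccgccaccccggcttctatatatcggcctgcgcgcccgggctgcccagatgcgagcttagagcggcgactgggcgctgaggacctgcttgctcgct
Igfbp4: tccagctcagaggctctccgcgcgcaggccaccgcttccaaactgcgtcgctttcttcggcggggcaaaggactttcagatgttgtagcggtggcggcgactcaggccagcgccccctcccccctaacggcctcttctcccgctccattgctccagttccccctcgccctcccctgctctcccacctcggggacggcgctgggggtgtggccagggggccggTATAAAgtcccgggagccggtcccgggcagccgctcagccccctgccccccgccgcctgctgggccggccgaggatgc
Igfbp6: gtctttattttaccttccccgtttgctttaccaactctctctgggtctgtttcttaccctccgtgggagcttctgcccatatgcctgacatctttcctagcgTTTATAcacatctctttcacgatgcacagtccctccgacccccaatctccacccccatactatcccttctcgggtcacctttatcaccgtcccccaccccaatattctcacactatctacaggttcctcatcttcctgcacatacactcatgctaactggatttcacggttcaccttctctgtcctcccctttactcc
Igfbp4 and Igfbp6 each hold 1 match, in Igfbp6 on the opposite strand, and Igfbp3 holds 0. Variants of TATAAA, such as the letters tatatat in the Igfbp3 window, were not searched for. TATAAA occurs in 13.6% of all 32851 promoter windows of this length. The letters GGGCGG, the GC box, occur in 35.7% of them and in 0 of the windows shown, and the motifs cannot overlap each other. A match describes letters and not a bound site. The RefSeq start of Igfbp6 lies upstream of its GENCODE start, so its window ends before the GENCODE gene.

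Igf1, the main growth factor of the pathway after birth, had its highest levels in fibroblasts and macrophages. Fibroblasts had 426 [402 to 450] CPM for WT and 425 [405 to 447] for LysM-DKO with normal diet, and 168 [155 to 181] in WT/ApoE-/- and 239 [222 to 256] in LysM-DKO/ApoE-/- with western diet. Macrophages had 161 [127 to 202] and 99.9 [82.1 to 120] CPM, then 342 [324 to 361] and 168 [139 to 201]. Fibroblasts were the highest class in 3 libraries, and macrophages in WT/ApoE-/-, where they were 2.04-fold above fibroblasts. The endothelial class had 22.4 to 62.3 CPM, smooth muscle 3.82 to 18.5, and B and T cells 3.13 to 19.9. With each barcode thinned to 1000 UMIs, Igf1 was seen in 26.9%, 26.0%, 18.1% and 17.1% of fibroblasts (53.0%, 54.5%, 34.5% and 42.8% unthinned) and 12%, 10.6%, 23.5% and 17.0% of macrophages (44.6%, 30.8%, 45.3% and 37.8% unthinned). In B cells, which should lack it, the thinned share was 0.647% and 1.25% in the normal diet libraries.

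**Figure D1:**
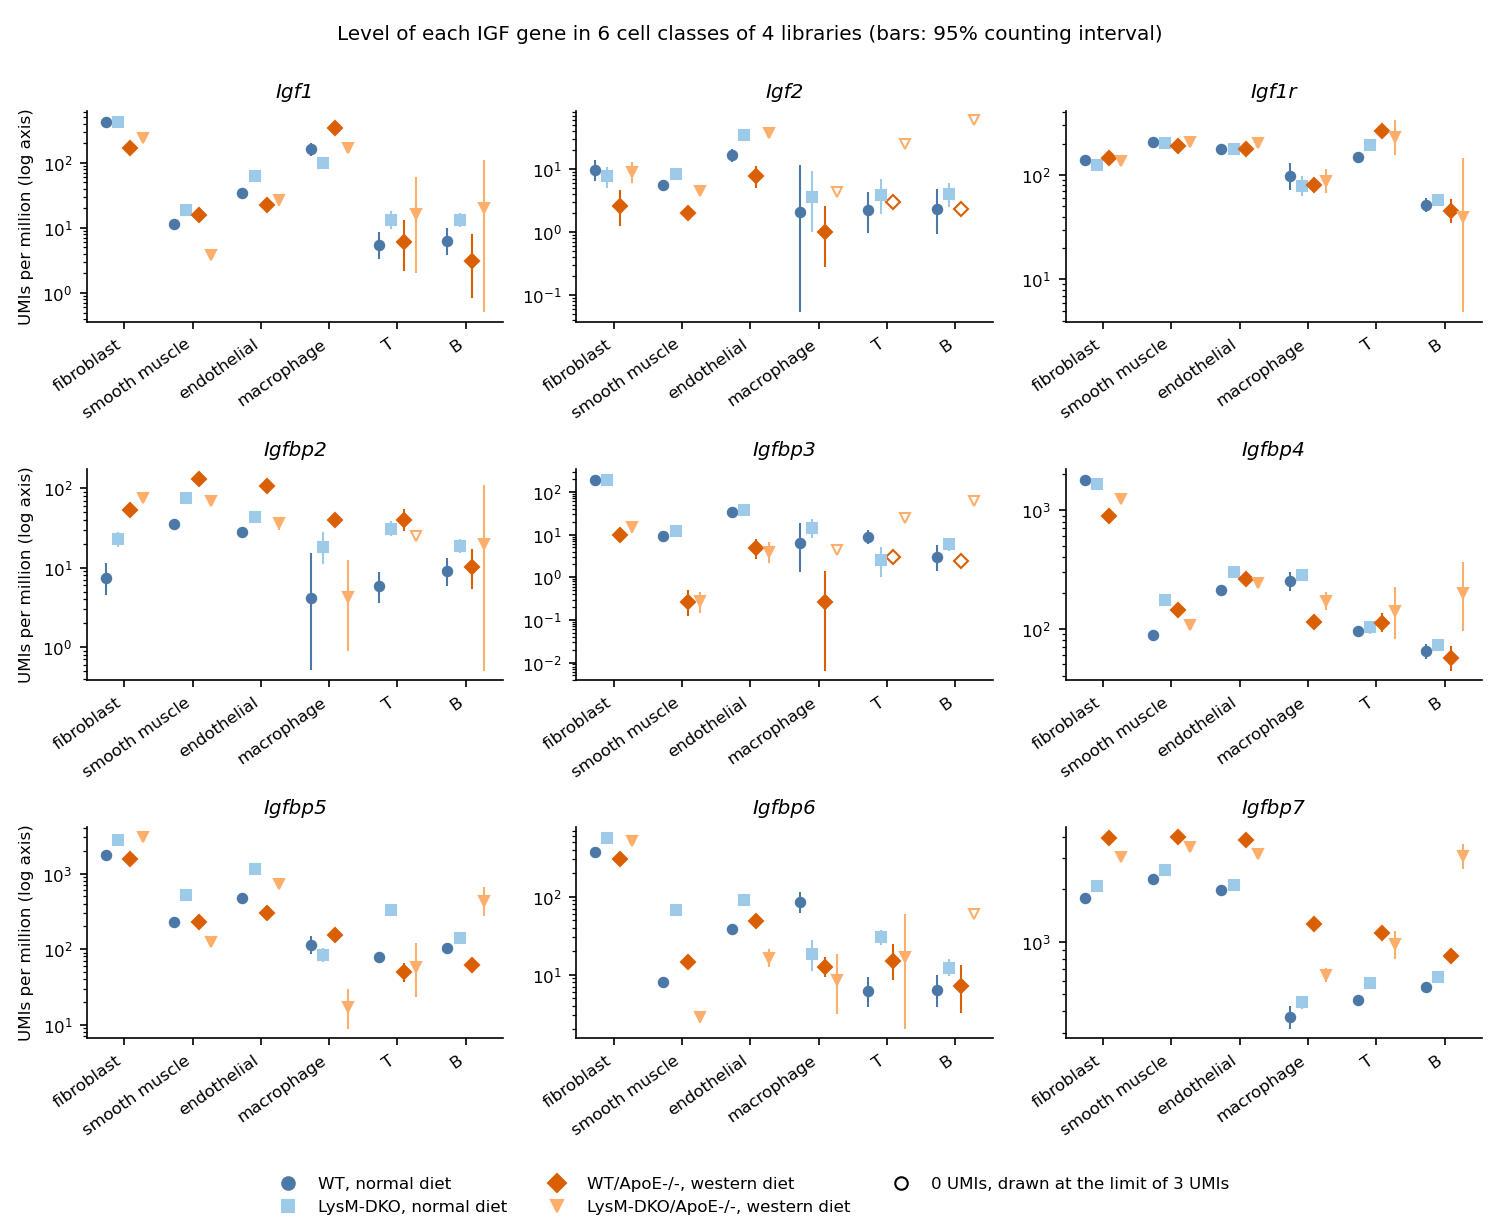
Level of each IGF gene (CPM of the class, log axis) in 6 cell classes, 1 point per library with bars for the 95% counting interval; open points mark 0 UMIs, drawn at the limit of 3 UMIs. Igf1 was highest in fibroblasts or macrophages, Igf2 in the endothelial class and Igfbp3 to Igfbp6 in fibroblasts, and fibroblast Igfbp3 was at 188 and 192 in the normal diet libraries against 9.98 and 14.7.

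Macrophage Igf1 was lower in LysM-DKO than in WT in both diets, with genotype ratios of -0.69 [-1.12 to -0.25] for normal diet and -1.02 [-1.31 to -0.75] for western diet, the latter past 2-fold. Macrophages were split by Lyve1 and Folr2, genes of resident adventitial macrophages, and by Trem2 and Gpnmb, genes of lipid-laden macrophages. Barcodes with Lyve1 or Folr2 only had 191, 157, 123 and 156 CPM of Igf1, and all 4 intervals overlapped. Barcodes with Trem2 or Gpnmb only had 168, 40.9, 409 and 201 CPM, from 13, 7, 875 and 72 UMIs. WT/ApoE-/- was highest in that subset and held 515 of its barcodes, against 10, 25 and 52 in the other libraries. Barcodes that met the macrophage rule alone had 184, 149, 458 and 202 CPM, and there the genotype ratio of the western diet pair was -1.17. With equal weight for each barcode it was -0.89, under 2-fold. The diet ratio was 1.08 [0.75 to 1.44] for WT and 0.75 [0.36 to 1.14] for LysM-DKO.

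**Figure D2:**
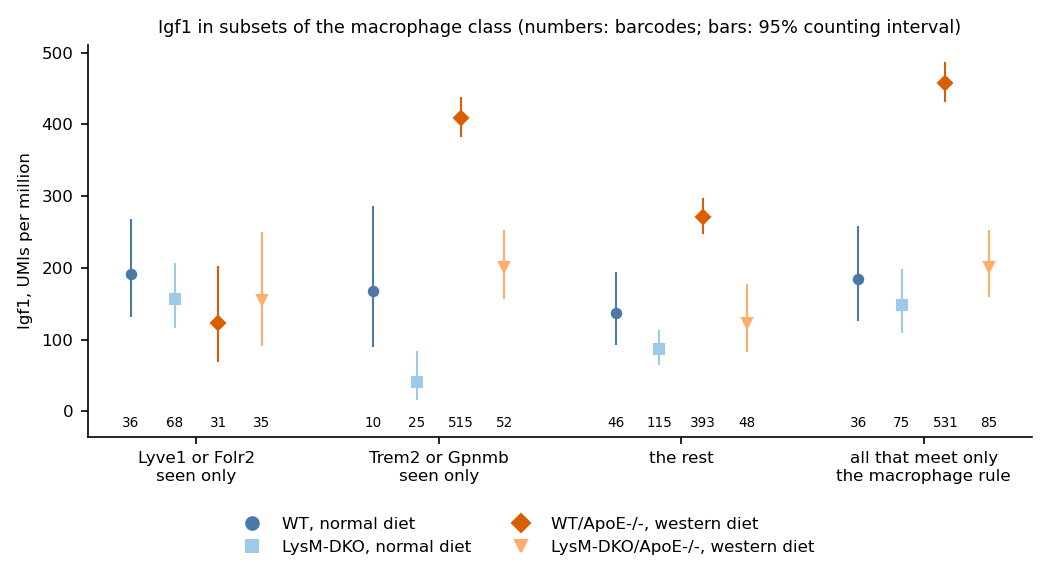
Igf1 level (CPM) in subsets of the macrophage class, 1 point per library with bars for the 95% counting interval and the number of barcodes below. Barcodes with Lyve1 or Folr2 only lie between 123 and 191, while WT/ApoE-/- is at 409 in barcodes with Trem2 or Gpnmb only and at 458 in all that meet the macrophage rule alone.

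Fibroblast Igf1 differed little by genotype with normal diet (0.00 [-0.11 to 0.11]) and was 0.51 [0.36 to 0.66] higher in LysM-DKO/ApoE-/- than in WT/ApoE-/-. Both western diet libraries were below both normal diet libraries, with diet ratios of -1.34 [-1.48 to -1.20] for WT and -0.83 [-0.96 to -0.71] for LysM-DKO. Fibroblasts with Pi16 or Dpp4, genes of adventitial progenitor-like fibroblasts, had 428, 449, 359 and 292 CPM. Those with neither had 423, 400, 106 and 205 CPM. In each subset both western diet libraries were below both normal diet libraries. This subset was also deeper with western diet, at 7164 and 5706 UMIs per barcode on average against 4362 and 4564. The cartilage and modulated muscle markers given above moved with diet in the same class, and their part in the Igf1 values was not tested. With equal weight for each barcode the WT diet ratio was -0.72, under 2-fold.

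Smooth muscle Igf1 was low, at 11.4, 18.5, 15.8 and 3.82 CPM, and lowest in LysM-DKO/ApoE-/-. Its genotype ratio was 0.69 [0.45 to 0.93] with normal diet and -2.05 [-2.30 to -1.81] with western diet. The barcodes with at least 2 UMIs of Lum and Vcam1, genes of modulated smooth muscle, had 48.3, 58.7, 24.6 and 19.4 CPM, and the others 6.35, 10.9, 6.70 and 1.89. The former numbered 4733 of 8836 in WT/ApoE-/- and 576 of 6636 in LysM-DKO/ApoE-/-. The part of this difference in make-up in the Igf1 ratio was not tested. LysM-DKO/ApoE-/- was the lower of the western diet pair in each subset.

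Igf2, a growth factor of the fetus that is low in most adult mouse tissue, was highest in the endothelial class of each library. It was at 16.5 [13.2 to 20.5] CPM for WT and 35.2 [30.2 to 40.7] for LysM-DKO with normal diet, and at 7.68 [5.02 to 11.3] in WT/ApoE-/- and 37.4 [31.4 to 44.4] in LysM-DKO/ApoE-/-. Both LysM-DKO libraries were above both WT libraries, and the intervals of the genotypes did not overlap. The genotype ratios were 1.08 [0.71 to 1.48] and 2.26 [1.67 to 2.95], and the second was the 12th highest of 9548 genes in the class. In barcodes that met the endothelial rule alone Igf2 was at 28.5, 87.8, 43.3 and 118 CPM, from 14, 71, 16 and 34 UMIs, and the genotype ratios were 1.58 and 1.42. The WT diet ratio was -1.09 in the whole class and 0.60 in those barcodes. With at most 5% mitochondrial UMIs the normal diet genotype ratio was 0.84, under 2-fold. The 5 barcodes with the most Igf2 held 26.3% and 41.4% of it in the LysM-DKO libraries.

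Elsewhere Igf2 was sparse. Smooth muscle had 5.62, 8.44, 2.04 and 4.42 CPM, with genotype ratios of 0.59 and 1.11 [0.72 to 1.53]. Fibroblasts had 9.84, 7.64, 2.56 and 9.03 CPM, from 28, 28, 10 and 30 UMIs. Macrophages had 1, 4, 4 and 0 UMIs, and B and T cells of the western diet libraries had 0. By the 95% interval a count of 0 allows up to 5.26 CPM in the macrophages, and in B and T cells up to between 2.89 and 73.5.

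Igf1r, the receptor through which both ligands signal, was the one member with no ratio past 2-fold. Smooth muscle had 209, 202, 189 and 208 CPM, the endothelial class 177, 177, 177 and 202, and fibroblasts 139, 124, 146 and 136. Macrophages had 98.4, 79.0, 79.5 and 88.3 CPM and B cells 52.0, 57.8, 45.4 and 39.8, the lowest of the classes. T cells had 149, 194, 264 and 232 CPM and were the highest class in the western diet libraries, although in LysM-DKO/ApoE-/- their interval overlapped that of smooth muscle. The smooth muscle genotype ratios were -0.05 [-0.11 to 0.02] and 0.14 [0.10 to 0.19], and the largest ratio of any class was the WT diet ratio of T cells, 0.82 [0.60 to 1.04].

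**Figure D3:**
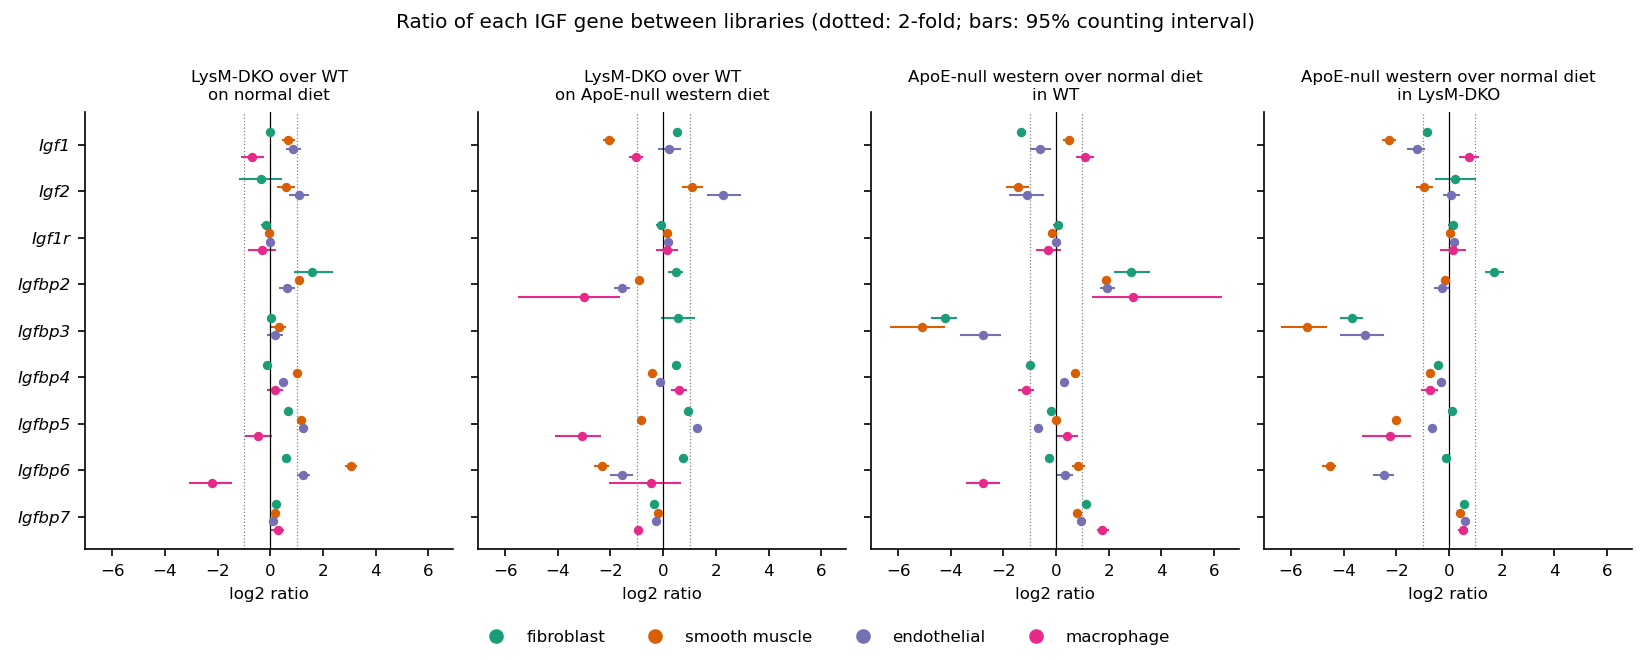
Log2 ratio of each IGF gene in 4 comparisons of libraries, 1 point per cell class (macrophage, endothelial, fibroblast, smooth muscle) with bars for the 95% counting interval; combinations under 50 UMIs or with a library at 0 are left out, and dotted lines mark 2-fold. Igf1r stays inside the lines, Igfbp3 lies at -2.78 to -5.40 in the diet ratios, and smooth muscle Igfbp6 is at 3.05 and -2.32 in the genotype ratios.

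The 6 binding proteins together made up 5906, 7303, 6738 and 7925 CPM in fibroblasts and 2645, 3431, 4496 and 3777 in smooth muscle. Igfbp7 took 86.0%, 75.5%, 88.5% and 91.9% of these UMIs in smooth muscle. In fibroblasts, which also held much Igfbp4 and Igfbp5, it took 30.2%, 28.6%, 58.3% and 38.8%.

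Igfbp2, a binding protein that can also attach to integrins, was highest in smooth muscle in 3 libraries. It was at 35 [32.6 to 37.5] CPM for WT and 75.1 [71.1 to 79.4] for LysM-DKO with normal diet, and at 129 [126 to 133] in WT/ApoE-/- and 68.1 [65.8 to 70.5] in LysM-DKO/ApoE-/-. The genotypes stood in opposite order in the diets: the genotype ratio was 1.10 [0.97 to 1.23] with normal diet and -0.92 [-0.99 to -0.86], under 2-fold, with western diet. The diet ratio was 1.88 [1.78 to 2.0] for WT and -0.14 [-0.23 to -0.05] for LysM-DKO.

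In fibroblasts Igfbp2 was at 7.38, 22.7, 53.5 and 74.3 CPM, higher in both western diet libraries, with diet ratios of 2.83 [2.21 to 3.58] and 1.71 [1.35 to 2.09]. The LysM-DKO ratio rested on few barcodes: 5 held 65.2% of the LysM-DKO/ApoE-/- count, and with equal weights it was 0.29. The fibroblast genotype ratio with normal diet was 1.59 [0.91 to 2.38], and 0.25 with doubled class thresholds. The endothelial class had 27.8, 43.4, 107 and 36.0 CPM. Its barcodes that met the endothelial rule alone had 5, 11, 0 and 1 UMIs, and those that also met the smooth muscle rule had 30.5, 50, 130 and 41.1 CPM. The genotype ratio of -1.57 with western diet and the WT diet ratio of 1.94 in the whole class thus rest on barcodes with smooth muscle RNA, and 5 barcodes held 52.2% of the WT/ApoE-/- count. Macrophages had 4.19, 18.2, 39.9 and 4.27 CPM from 2, 20, 156 and 3 UMIs, highest in WT/ApoE-/-.

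Igfbp3, the main carrier of IGFs in serum, had the lowest diet ratios of the 9 genes in fibroblasts, smooth muscle and the endothelial class. Fibroblasts had 188 [172 to 205] CPM for WT and 192 [178 to 207] for LysM-DKO with normal diet, and 9.98 [7.09 to 13.6] in WT/ApoE-/- and 14.7 [10.9 to 19.5] in LysM-DKO/ApoE-/-. Both western diet libraries were far below both normal diet libraries. The diet ratio was -4.22 [-4.74 to -3.77] in WT, the 13th lowest of 9406 genes, and -3.69 [-4.15 to -3.28] in LysM-DKO, the 33rd lowest of 9485. The genotype ratios were 0.03 [-0.13 to 0.20] and 0.56 [-0.07 to 1.21]. Thinned to 1000 UMIs, 10.7%, 9.99%, 0.473% and 1.68% of fibroblasts showed it (21.2%, 16.9%, 1.26% and 3.36% unthinned).

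Both western diet libraries were also the lower in 2 other classes. The endothelial class had 33.5, 37.7, 4.73 and 3.94 CPM, with diet ratios of -2.78 [-3.66 to -2.08] and -3.21 [-4.16 to -2.48]. Smooth muscle had 9.42, 11.8, 0.262 and 0.270 CPM, with diet ratios of -5.09 [-6.32 to -4.22] and -5.40 [-6.38 to -4.64]. The 6 diet ratios of these classes were past 2-fold under all 10 other choices of filter, class limit, scaling and weight, although 5 barcodes held 66.5% of the smooth muscle count of WT. Fibroblast markers summed to 1632, 2053, 5125 and 1460 CPM in smooth muscle, against 31337, 26739, 25891 and 22065 in fibroblasts. The part of fibroblast RNA in the low Igfbp3 levels of smooth muscle was not tested. Endothelial barcodes with at least 2 UMIs of Rgcc, Gpihbp1 and Cd36, genes of capillaries, had 66.9, 94.7, 23.7 and 13.1 CPM and the others 22.3, 17.8, 0.716 and 2.84. Fibroblasts with Pi16 or Dpp4 had 96.4, 83.5, 4.18 and 16.3 CPM and those with neither 285, 311, 11.9 and 13.7, so the difference between diets was present in both. Genes that tissue handling induces (Fos, Jun, Egr1 and 7 others) summed to 14083, 11638, 7160 and 9968 CPM in fibroblasts and to 15235, 11136, 7533 and 8223 in smooth muscle, also lower in the western diet libraries. Their part in the Igfbp3 difference was not tested.

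Igfbp4, which the protease PAPP-A cuts to free IGF, was a fibroblast gene. Fibroblasts had 1802, 1661, 892 and 1231 CPM, 3.42 to 7.17 times the next class of the same library. The diet ratio was -1.01 [-1.08 to -0.95] for WT and -0.43 [-0.49 to -0.37] for LysM-DKO, and with equal weights the WT ratio was -0.45. Fibroblasts with Pi16 or Dpp4 had 1923, 1846, 1677 and 1570 CPM, a narrow range. Those with neither had 1673, 1458, 637 and 1018, lowest in WT/ApoE-/-. Macrophages had 251, 284, 113 and 171 CPM, with a WT diet ratio of -1.16 [-1.45 to -0.85]. Barcodes with Lyve1 or Folr2 only had 404, 377, 254 and 505 CPM and those with Trem2 or Gpnmb only 51.6, 129, 91.3 and 64.3. In WT/ApoE-/- the subset with more Igf1 was thus the one with less Igfbp4. Smooth muscle had 87.5, 175, 143 and 107 CPM, with genotype ratios of 1.0 [0.92 to 1.08], at the limit of 2-fold, and -0.42 [-0.48 to -0.37].

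Igfbp5, which binds both IGFs and matrix, was higher in fibroblasts of both LysM-DKO libraries. It was at 1755 [1706 to 1804] CPM for WT and 2773 [2720 to 2828] for LysM-DKO with normal diet, and at 1548 [1509 to 1587] in WT/ApoE-/- and 3015 [2957 to 3075] in LysM-DKO/ApoE-/-. The genotype ratios of 0.66 [0.61 to 0.71] and 0.96 [0.92 to 1.01] were both under 2-fold. Fibroblasts with Pi16 or Dpp4 had 1861, 3803, 3201 and 4372 CPM and those with neither 1643, 1645, 1011 and 2159. The genotypes were nearly level in the latter subset with normal diet, and LysM-DKO was the higher in the former and in both subsets with western diet.

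The endothelial class had 474, 1130, 297 and 720 CPM of Igfbp5, with genotype ratios of 1.25 [1.18 to 1.32] and 1.28 [1.17 to 1.39]. In barcodes that met the endothelial rule alone it was at 1527, 1828, 376 and 1426 CPM, and the normal diet ratio was 0.26. In LysM-DKO/ApoE-/- 5 barcodes held 51.3% of the count, and with doubled class thresholds the western diet ratio was -0.03. Smooth muscle had 231, 512, 229 and 126 CPM, with genotype ratios of 1.15 and -0.86. Macrophages had 115, 84.5, 153 and 17.1 CPM, and 5 barcodes held 89.1% of the count of WT with normal diet.

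**Figure D4:**
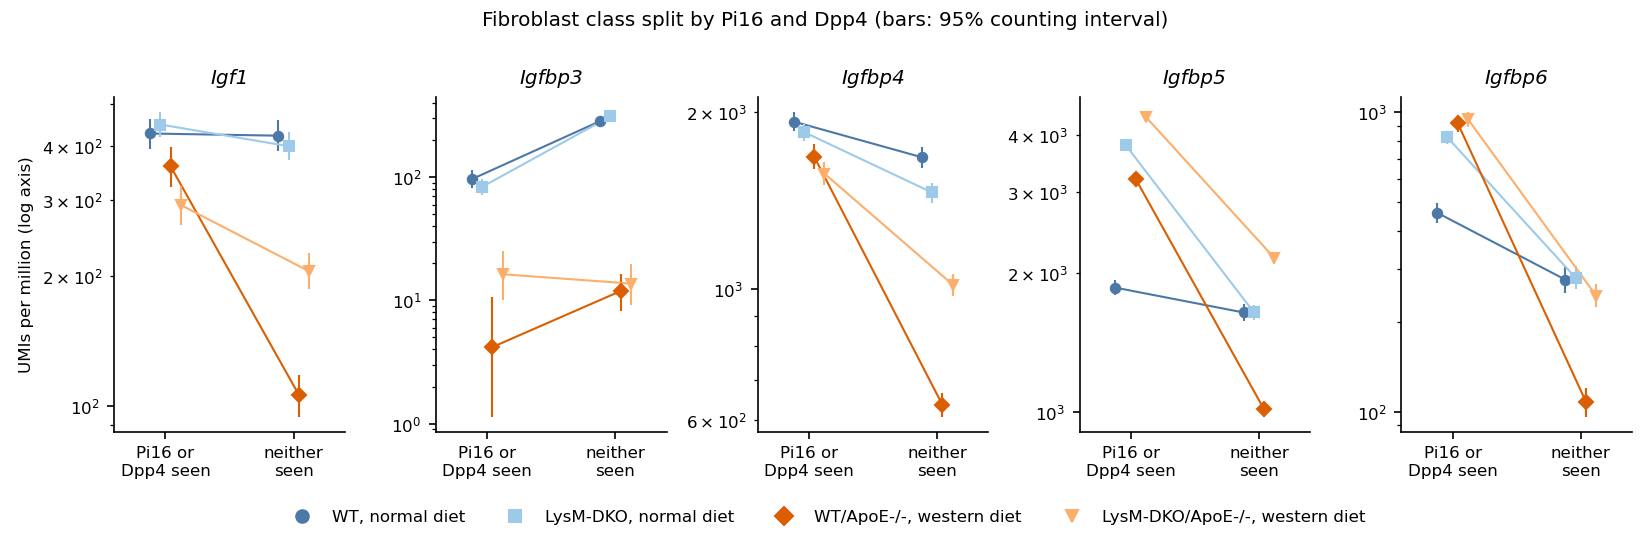
Level of IGF genes (CPM, log axis) in fibroblasts with Pi16 or Dpp4 and in those with neither, 1 line per library with bars for the 95% counting interval. Igf1, Igfbp4, Igfbp5 and Igfbp6 drop most between the subsets in WT/ApoE-/-, and Igfbp3 is at 4.18 to 16.3 in the western diet libraries against 83.5 to 311 in the normal diet libraries.

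Igfbp6, which prefers IGF2 to IGF1, was also highest in fibroblasts. It was at 371 [349 to 395] CPM for WT and 565 [541 to 590] for LysM-DKO with normal diet, and at 307 [290 to 325] in WT/ApoE-/- and 517 [493 to 542] in LysM-DKO/ApoE-/-. LysM-DKO was the higher of each pair, with genotype ratios of 0.61 [0.50 to 0.71] and 0.75 [0.65 to 0.86], both under 2-fold. Fibroblasts with Pi16 or Dpp4 had 462, 825, 921 and 949 CPM and those with neither 276, 280, 108 and 244. The genotypes were close in the latter and apart in the former with normal diet, and the reverse with western diet.

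In smooth muscle Igfbp6 was at 8.04 [6.92 to 9.28] CPM for WT and 66.6 [62.8 to 70.6] for LysM-DKO with normal diet, and at 14.3 [13.1 to 15.7] in WT/ApoE-/- and 2.86 [2.40 to 3.38] in LysM-DKO/ApoE-/-. LysM-DKO was thus the highest library with normal diet and the lowest with western diet, with genotype ratios of 3.05 [2.83 to 3.28] and -2.32 [-2.61 to -2.05]. In the same class the summed level of the 6 fibroblast markers was 1632, 2053, 5125 and 1460 CPM and that of the 6 modulated muscle markers 1217, 1509, 8158 and 2825. Both sums were higher in WT/ApoE-/- than in LysM-DKO/ApoE-/-, and their part in the Igfbp6 values was not tested. The barcodes with at least 2 UMIs of Lum and Vcam1 held 387 of the 493 Igfbp6 UMIs of WT/ApoE-/-. Igfbp6 was at 32.6, 63.1, 22.1 and 16.2 CPM in them and at 4.62, 67.3, 6.29 and 1.21 in the others. LysM-DKO was the higher with normal diet and the lower with western diet in each subset. The endothelial class had 38.4, 91.2, 48.7 and 16.3 CPM, with genotype ratios of 1.24 and -1.57; in barcodes that met the endothelial rule alone they were -1.06 and -0.74. Macrophages had 85.9, 18.2, 12.5 and 8.55 CPM, and 1 barcode held 37 of the 41 UMIs of WT with normal diet.

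In the smooth muscle class of LysM-DKO with normal diet a small number of barcodes with mesothelial markers held a large share of the Igfbp5 and Igfbp6 UMIs. Mesothelial cells cover the outer surface of organs, and barcodes with at least 2 UMIs of Msln, Upk3b, Krt19 and Lrrn4 numbered 14, 78, 4 and 3. In them Igfbp5 was at 15329, 14454, 0 and 38215 CPM and Igfbp6 at 2308, 2667, 0 and 3546, the third library having 0 UMIs of either, where the limit of 3 UMIs is 52.8 CPM. Of the LysM-DKO normal diet smooth muscle class, 46 of 3487 barcodes were of this kind, with 40.6% of its Igfbp5 UMIs and 59.7% of its Igfbp6 UMIs. In fibroblasts of that library the shares were 3.08% and 3.77%. Without them smooth muscle Igfbp6 was at 4.72, 27.2, 14.3 and 2.86 CPM and Igfbp5 at 205, 308, 229 and 126. The normal diet genotype ratio was then 2.52 for Igfbp6, still past 2-fold, and 0.59 for Igfbp5, under it. In macrophages that of Igfbp6 was -2.22 with them and 0.95 without. This split was chosen after the values were seen.

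**Figure D5:**
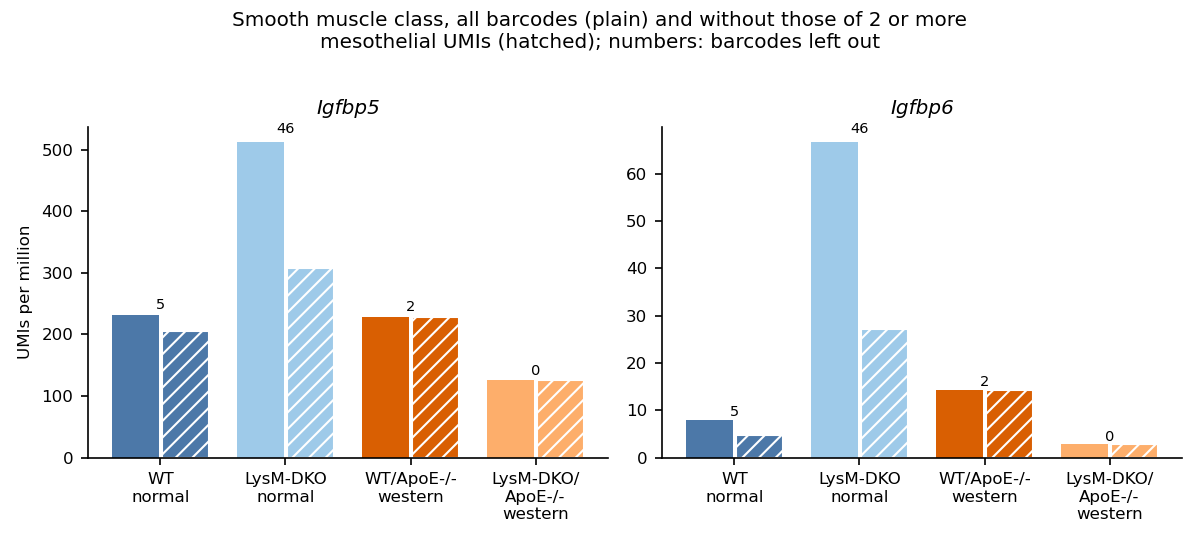
Igfbp5 and Igfbp6 levels (CPM) in the smooth muscle class of each library, with all barcodes (plain bars) and without those of 2 or more mesothelial UMIs (hatched bars); numbers give the barcodes left out. In LysM-DKO with normal diet, leaving out 46 barcodes takes Igfbp5 from 512 to 308 and Igfbp6 from 66.6 to 27.2.

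Igfbp7 was abundant in all 3 classes of the wall and higher in the western diet libraries. Smooth muscle had 2274 [2255 to 2294] CPM for WT and 2590 [2566 to 2615] for LysM-DKO with normal diet, and 3979 [3958 to 4001] in WT/ApoE-/- and 3472 [3455 to 3489] in LysM-DKO/ApoE-/-. Its diet ratios there were 0.81 [0.79 to 0.82] and 0.42 [0.41 to 0.44], both under 2-fold. Fibroblasts had 1783, 2089, 3928 and 3073 CPM, with diet ratios of 1.14 [1.09 to 1.19] and 0.56 [0.51 to 0.60], and the endothelial class had 1981, 2121, 3848 and 3189. The first of these ratios, in WT fibroblasts, was past 2-fold under all 10 of these choices too. Macrophages had 371, 451, 1261 and 648 CPM, with a WT diet ratio of 1.76 [1.55 to 1.99]. Macrophage barcodes that met their own rule alone had 289, 292, 311 and 99.9 CPM and a WT diet ratio of 0.09. T cells had 465, 579, 1126 and 969 CPM, with a WT diet ratio of 1.27 and of -0.02 in barcodes of that rule alone. In B cells of the first 3 libraries Igfbp7 was at 24.1%, 24.2% and 20.9% of its smooth muscle level, and the muscle genes Acta2, Tagln and Myl9 at 22.8%, 21.7% and 19.2% of theirs. B cells had 549, 628, 833 and 3088 CPM; in the last library these were 14 barcodes, of which 1 held 133 of 155 UMIs.

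Across the 54 combinations of gene and class, 47 had 50 UMIs in the normal diet genotype comparison, where 14 were at least 2-fold higher in LysM-DKO and 1 lower. Over all genes and classes 2.80% were higher and 0.738% lower. Igfbp2 was among the higher in 4 classes (B, T, fibroblast and smooth muscle), Igfbp5 and Igfbp6 in 3 (T, endothelial and smooth muscle), Igf1 in B and T cells, Igf2 in the endothelial class and Igfbp4 in smooth muscle. In T cells of LysM-DKO 5 barcodes held 72.4% of the Igfbp5 UMIs, 71.1% of those of Igf1, 63.5% of Igfbp6 and 48.9% of Igfbp2. In these 2 libraries 62.4% and 67.1% of B cells and 60.2% and 69.6% of T cells also met the smooth muscle rule. The western diet genotype comparison had 39 combinations, 6 higher and 7 lower, against 2.67% and 5.69% of all genes. Of these 6 higher, 3 were in B cells, where LysM-DKO/ApoE-/- had 14 barcodes and 10.9% of all genes were higher. Only Igf2 and Igfbp5, both in the endothelial class, were past 2-fold in the same direction in both genotype comparisons.

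The diet comparison in WT had 42 combinations, 9 higher and 9 lower, against 7.68% and 6.05% of all genes. In LysM-DKO it had 45, 5 higher and 11 lower, against 6.88% and 8.74%. Of these 5 higher, 4 were in B cells, where the western diet library held 14 barcodes and 21.7% of all genes were higher. Igfbp3 in fibroblasts, smooth muscle and the endothelial class, and Igfbp2 in fibroblasts, were past 2-fold in the same direction in both. The median ratio of the members in smooth muscle was 0.69, -0.64, 0.47 and -0.94 in these 4 comparisons, against 0.00, -0.01, 0.00 and 0.00 over all genes. In fibroblasts it was 0.03, 0.49, -0.23 and 0.12, against 0.00, 0.05, 0.13 and 0.18. The 4 comparisons share libraries and are not independent of each other.

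Other genes of the pathway came from a list of 34 chosen by role. Igf2r, the receptor that carries IGF2 to the lysosome, was at 12.6, 28.2, 106 and 85.5 CPM in macrophages, from 6, 31, 415 and 60 UMIs. It was higher in both western diet libraries, with diet ratios of 2.96 [1.94 to 4.53] and 1.59 [0.95 to 2.28]. Of all macrophage genes 20.1% and 5.24% were at least 2-fold higher in these diet comparisons. In smooth muscle Igf2r was at 79.6, 119, 118 and 152 CPM and in fibroblasts at 88.9, 115, 146 and 116. Insr, the insulin receptor, was at 65.3, 67.2, 54.9 and 80.5 CPM in smooth muscle, 69.3, 79.8, 49.3 and 73.8 in the endothelial class and 29.5, 32.5, 34.5 and 31.6 in fibroblasts. Of the whole list, 0 combinations with a class were higher and 2 lower of 131 in the normal diet genotype comparison, and 6 and 6 of 122 in that of western diet. The diet comparisons gave 10 higher and 9 lower of 131 in WT and 12 and 11 of 129 in LysM-DKO. In the western diet genotype comparison B cells held 3 of the 6 higher and 2 of the 6 lower. In the WT diet comparison macrophages held 5 of the 10 higher, where 20.1% of all genes were higher. In that of LysM-DKO B cells, with 14 western diet barcodes, held 6 of the 12 higher, where 21.7% were. The shares of all genes are those given above. The median ratio of the list in smooth muscle was 0.04, -0.01, 0.01 and -0.05 in the 4 comparisons.

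Irs2, Stc1, Pappa, Htra1, Igfbp1 and Ccn5 were picked from the lists after their values were seen. Irs2, an adaptor of the IGF1 and insulin receptors, was at 197, 183, 59.6 and 87.3 CPM in fibroblasts and 257, 184, 99.3 and 92.3 in smooth muscle, lower with western diet. Stc1, an inhibitor of PAPP-A, was at 73.5, 27.8, 5.12 and 7.22 CPM in fibroblasts, with diet ratios of -3.81 [-4.58 to -3.18] and -1.92 [-2.65 to -1.29]. Pappa itself was at 34.4, 45.0, 30.9 and 47.8 CPM there. Htra1, a protease that cuts binding proteins, was at 256, 267, 511 and 486 CPM in smooth muscle, higher with western diet. Igfbp1, a binding protein made by liver, had 0 UMIs in every class of every library except smooth muscle of the western diet libraries, with 3 and 1. A further list of 12 secreted proteins that carry the N-terminal domain of the binding proteins had 3 combinations higher and 0 lower of 51 in the normal diet genotype comparison, and 3 and 5 of 46 in that of western diet. Of all gene and class combinations 2.80% were higher and 0.738% lower in the first, and 2.67% and 5.69% in the second. The list had 17 higher and 0 lower of 52 in the WT diet comparison, where 7.68% of all were higher and 6.05% lower. Few genes gave most of these: Ccn5 was higher in all 6 classes, and Ccn4 and Htra1 in several. The others were of Ccn2, Htra3 and Kazald1. In the LysM-DKO diet comparison the list had 8 and 3 of 48, with 3 of the 8 in B cells, against 6.88% and 8.74% of all. Its median ratio in smooth muscle was -0.06, -0.22, 0.35 and 0.01. One of its genes, Ccn5, was at 39.0, 36.2, 148 and 74.8 CPM in smooth muscle. No gene of either list was past 2-fold in the same direction in both genotype comparisons of a class.

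Likeness of pattern was described by the Pearson correlation of log2(CPM + 10) over the 24 combinations of class and library, among 6315 genes. Of the members, Igfbp4 and Igfbp6 were closest to each other, at 0.90, whereas Igf1 and its receptor were at -0.12. The genes most like the ligand Igf1 were Dapk1 (0.919), Tgfbi (0.908) and Itm2b (0.906), and those most like Igf2 were Slc9a3r2 (0.866), Epas1 (0.845) and Cldn5 (0.838). For Igf1r they were Abca2 (0.892), Ldlrad4 (0.892) and Slco3a1 (0.891). For Igfbp2 they included Ddb1 (0.879) and Cisd1 (0.862), and for Igfbp3 they were Ptx3 (0.921), Has1 (0.914) and Tnfaip6 (0.880). For Igfbp4 they were Lpar1 (0.944), Bicc1 (0.944) and Fbln1 (0.931), and for Igfbp5 Nid1 (0.937), Mfap5 (0.917) and Dact1 (0.914). For Igfbp6 they were Gfpt2 (0.941), Lpar1 (0.922) and Igsf10 (0.920), and for Igfbp7 Htra1 (0.984), Cavin3 (0.973) and Slit3 (0.966). The 24 points share 4 libraries, their depth, free RNA and mixed barcodes, so these values carry no p.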

How the data were processed

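Single-cell RNA of 4 mouse aorta libraries was measured with 10x Genomics chemistry. The deposited matrices hold whole-number UMI counts per gene and barcode, made by the authors with Cell Ranger 6.0.1 (normal diet) and 6.1.2 (western diet), per the file headers; the submitters' processing notes name 6.1.2 for every sample, with Seurat and the build mm10. Gene positions are from GENCODE M21 (GRCm38), and promoters from RefSeq.

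Barcodes below 1000 UMIs or above 10% mitochondrial UMIs were left out. Each other barcode went to the first class whose marker sum reached its threshold: C1qa, C1qb and C1qc 5 (macrophage), Cd79a and Ms4a1 2 (B), Cd3d, Cd3e and Trac 2 (T), Pecam1 and Cdh5 2 (endothelial), Pdgfra and Serpinf1 3 (fibroblast), Myh11 and Cnn1 3 (smooth muscle). UMIs were summed per library and class and divided by all UMIs of that class (numpy 2.4.6 and scipy 1.17.1 in python 3.11.15, with figures from matplotlib 3.10.9). Log2 ratios had 0.5 UMI added to each library. Kept medians were 4167, 3404, 2103 and 6761 UMIs. Doublets were not removed; 23.8%, 28.4%, 8.32% and 7.59% of kept barcodes met 2 or more rules. An alternative removed the highest scrublet scores (scanpy 1.11.5), 8.99% to 12.3% of kept barcodes. Other alternatives changed the filters, the class limits, the scaling, the weight of a barcode and the low-count limit. Interval coverage was checked only on simulated counts drawn from the model that the intervals assume, so it does not measure coverage on these data.

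The members, lists and rules were chosen with earlier results of these data known. Named were all 9 members, the 3 genes most like each (of which 1 is not reported here), Igf2r and Insr, and list genes past 2-fold in the same direction in both genotype comparisons of a class, of which there were 0. Irs2, Stc1, Pappa, Htra1, Igfbp1 and Ccn5 fall outside this rule and were picked after their values were seen. The alternative without mesothelial-marker barcodes was added after seeing the data.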

Additional observations from a re-analysis of the deposited data

Results flagged for a closer look

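In smooth muscle the Igfbp6 genotype ratio was 3.05 with normal diet and -2.32 with western diet, past 2-fold in opposite directions. With 1 library per group this difference between diets was not tested. In LysM-DKO with normal diet, 46 barcodes of at least 2 mesothelial UMIs held 683 of 1144 Igfbp6 UMIs, and without them the first ratio was 2.52.

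The endothelial Igfbp6 genotype ratios were also opposite, 1.24 and -1.57, and the difference was not tested. Barcodes that met the endothelial rule alone gave -1.06 and -0.74, both below 0.

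In T cells the Igfbp2 diet ratio was 2.77 in WT and -2.92 in LysM-DKO, a difference that was not tested either. In WT/ApoE-/- 1 barcode held 23 of the 40 UMIs, and 5 held 72.5%; in LysM-DKO with normal diet 1 held 31 of the 88. In barcodes that met only the T cell rule the WT diet ratio was 0.44. The second ratio rests on 0 UMIs in the 33 T cells of the LysM-DKO/ApoE-/- western diet library. The 95% interval there reaches 30.5 CPM and overlaps the 31.1 [24.9 to 38.3] CPM of LysM-DKO with normal diet.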

How the results depend on the processing

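No paired analysis was possible because each group is 1 library. Of 173 log2 ratios with at least 50 UMIs under 11 alternatives, 1497 values stayed within the counting interval of the reported ratio, 386 moved outside it and 20 had the opposite sign of a ratio past 2-fold. Of 62 ratios past 2-fold, 23 were past 2-fold in the same direction under each alternative chosen at the outset, among them all 6 of Igfbp3.

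In barcodes that met 1 class rule alone, LysM-DKO over WT on normal diet was -0.06 for Igf1 in B cells and -1.06 for Igfbp6 in the endothelial class. On western diet it was 1.94 for Igfbp2 in the endothelial class, -0.26 for Igfbp4 in B cells and -1.53 for Igfbp7 in B cells, and with doubled class thresholds 2.56, -1.10 and -1.95. Western over normal diet in WT was 0.60 for endothelial Igf2, -3.05 for endothelial Igfbp2 (-0.40 with doubled thresholds; these endothelial Igfbp2 values rest on 0 to 11 UMIs a library in barcodes of 1 rule) and -0.02 for Igfbp7 in T cells. In LysM-DKO it was 0.79 for endothelial Igf1, -1.34 for Igfbp4 in B cells and -1.85 for Igfbp7 in B cells, with -1.45 and -1.73 under doubled thresholds. Doubled thresholds also gave -0.03 for endothelial Igfbp5, LysM-DKO over WT on western diet. Without mesothelial-marker barcodes Igfbp6 in macrophages was 0.95 for LysM-DKO over WT on normal diet and 0.39 for western over normal diet in WT.

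The 14 pairs higher in LysM-DKO on normal diet became 7 with equal weights and 8 with a limit of 200 UMIs. The 1 lower pair became 3 in barcodes of 1 class rule, 0 without mesothelial-marker barcodes, 2 with a limit of 20 UMIs and 0 with 200. The 6 higher on western diet became 3 with a limit of 200 UMIs. For western over normal diet, the 9 higher in WT became 5 in barcodes of 1 class rule. The 5 higher in LysM-DKO became 2 there, 3 with doubled thresholds and 3 with equal weights. The causes were not tested, except that a stricter limit leaves fewer pairs to count. Depth limits Igf2 in macrophages, B and T cells and every value of the 14 B and 33 T cells of LysM-DKO/ApoE-/- on western diet.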

Other observations

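Some barcodes in no class held much Igfbp5 and Igfbp6. Of the barcodes outside all 6 classes and without the gene sets of other known types, those of LysM-DKO/ApoE-/- with western diet (84 barcodes) had 8382 CPM of Igfbp5, against 612, 1617 and 167 in the other libraries. Their Igfbp6 was at 994 CPM, against 66.6, 293 and 20.4. Mesothelial markers summed to 29.4, 168, 0.899 and 220 CPM over all barcodes in no class. Among these, 8, 23, 1 and 3 barcodes had at least 2 mesothelial UMIs. They held 31.0%, 48.0%, 0% and 51.6% of the Igfbp5 UMIs and 25.0%, 53.0%, 0% and 42.7% of those of Igfbp6. Without them LysM-DKO/ApoE-/- barcodes in no class had 1447 CPM of Igfbp5 and 192 of Igfbp6, against 2874 and 322. Their part in the values of the 84 barcodes was not tested.

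Smooth muscle with at least 2 UMIs of Rgs5, a gene of pericytes and of some smooth muscle, had Igfbp2 at 22.5, 67.1, 110 and 47.5 CPM and the others at 44.8, 83.4, 154 and 117, lower with Rgs5 in all 4 libraries. Igf1r was at 209, 209, 195 and 208 CPM and 208, 195, 181 and 209 in the same subsets.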
